A study of Mus musculus with 53 samples.

Results

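The 10 genes described here encode the IL-1 family cytokines Il1a, Il1b, Il1rn, Il18 and Il33, the IL-6 family cytokines Il6, Il11, Lif and Osm, and Tnf. They were chosen by name, and all 10 were found among the 55421 gene identifiers of the deposited count table through the symbols of its annotation. RNA was sequenced from whole tissue of 53 adult mice in 11 groups, each mutant group being set against its own wild type (WT). Every mouse, WT included, carried VilCreER, a tamoxifen-inducible Cre recombinase driven by the villin promoter in the intestinal epithelium. BA mice also carried BrafV600E/+ and Alk5fl/fl, so that induction switches on an activated Braf allele and deletes Alk5 (Tgfbr1), the type I receptor for TGF-beta. A mice carried Alk5fl/fl without the Braf allele.

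In the proximal colon, 4 BA tumours were compared with 3 WT colons, and at day 30 (d30) post induction 5 BA, 5 antibiotic-treated BA, 4 A and 4 sulindac-treated A mice were compared with the same 4 d30 WT mice. The antibiotic mice drank ampicillin, neomycin, vancomycin and metronidazole from the day after tamoxifen. The sulindac mice drank this anti-inflammatory drug for 14 days and then plain water. The paper used it at a high dose, reported to damage the epithelium of the proximal colon, to model wounding and inflammation. In the small intestine, 10 Apcfl/fl mice were compared with 6 WT mice at day 4 (d4), and 5 Apcfl/+ tumours with 3 WT small intestines (WT SI). The Apcfl/+ tumours and WT SI came from an inbred C57BL6/J background, whereas the other groups were mixed C57BL/6J mice. Recombination is limited to epithelial cells by that promoter, while the libraries held RNA of all cell types in the tissue.

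IL-1 family cytokines act through receptors that resemble Toll-like receptors and activate NF-kB. Il1a and Il1b bind the receptor Il1r1, and Il1rn encodes the antagonist that occupies it without signalling. Il18 and Il33 bind receptors of their own (Il18r1 and Il1rl1), and pro-Il1b and pro-Il18 are cut by Casp1 in inflammasomes. IL-6 family cytokines act through receptor complexes that include Il6st (gp130) and signal through JAK kinases to Stat3. In the gut, Il18 is known as a product of the epithelium, Il11 of fibroblasts, and Il1b, Osm and Tnf of myeloid cells.

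The sequences upstream of 6 of these genes are shown because the genes moved in different combinations in the comparisons that follow. Each runs 5' to 3' over the 250 bases before a transcription start in RefSeq, on the strand of the gene, in GRCm38.p6. Capitals mark a match to 1 of 6 motifs searched on both strands, namely NF-kB, AP-1 (TGANTCA), C/EBP (TTGCNNAA), CRE (TGACGTCA), TATA box (TATAAA) and STAT (TTCNNNGAA). They are Il6 (chr5:30012864-30013113, plus strand), Lif (chr11:4257318-4257567, plus), Il11 (chr7:4778142-4778391, minus), Il1rn (chr2:24336610-24336859, plus), Il1b (chr2:129371140-129371389, minus) and Il18 (chr9:50554450-50554699, plus).
Il6: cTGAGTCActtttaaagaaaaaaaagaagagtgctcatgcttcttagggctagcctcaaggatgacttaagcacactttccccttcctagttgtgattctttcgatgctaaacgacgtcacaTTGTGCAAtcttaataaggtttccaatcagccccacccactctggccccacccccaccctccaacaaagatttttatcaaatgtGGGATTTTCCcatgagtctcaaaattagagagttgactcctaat
Lif: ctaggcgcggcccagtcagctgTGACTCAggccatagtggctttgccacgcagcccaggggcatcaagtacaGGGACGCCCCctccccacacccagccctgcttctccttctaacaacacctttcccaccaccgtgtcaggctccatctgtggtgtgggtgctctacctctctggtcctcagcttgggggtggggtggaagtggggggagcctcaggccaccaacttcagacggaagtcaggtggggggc
Il11: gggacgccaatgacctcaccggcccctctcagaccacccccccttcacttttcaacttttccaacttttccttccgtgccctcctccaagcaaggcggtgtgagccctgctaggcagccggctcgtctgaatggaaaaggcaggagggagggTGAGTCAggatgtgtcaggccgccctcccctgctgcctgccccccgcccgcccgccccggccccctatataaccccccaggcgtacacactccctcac
Il1rn: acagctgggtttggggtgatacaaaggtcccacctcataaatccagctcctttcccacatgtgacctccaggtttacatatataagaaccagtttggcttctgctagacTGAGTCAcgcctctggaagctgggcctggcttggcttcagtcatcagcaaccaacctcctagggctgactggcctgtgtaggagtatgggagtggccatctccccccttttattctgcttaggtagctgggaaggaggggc
Il1b: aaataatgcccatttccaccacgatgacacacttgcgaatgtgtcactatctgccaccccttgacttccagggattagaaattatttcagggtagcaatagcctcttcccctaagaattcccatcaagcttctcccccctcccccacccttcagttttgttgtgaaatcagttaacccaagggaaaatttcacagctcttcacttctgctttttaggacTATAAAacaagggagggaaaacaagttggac
Il18: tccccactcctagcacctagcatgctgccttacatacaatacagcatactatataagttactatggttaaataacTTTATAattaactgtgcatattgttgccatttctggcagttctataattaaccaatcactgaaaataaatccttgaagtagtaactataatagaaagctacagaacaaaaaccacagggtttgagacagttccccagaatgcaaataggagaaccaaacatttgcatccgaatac

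RefSeq windows were matched for 9 of the 10 genes, with no entry for Osm. An AP-1 match lay in 5 of the 13 windows of these 9 genes, 1 each for Il1a, Il1rn, Il6, Il11 and Lif. The share was 6.75% of 32851 promoter windows of the same length. The NF-kB motif was found before Il6 and Lif (7.25% of all windows) and C/EBP before Il6 and the second start of Il33 (9.56%). The letters of the TATA box were found before Il1a, Il1b, Il18, Il33 and Tnf (12.4%). For Il1a, Il1b, Tnf and the second start of Il33 they lay 24 to 32 bases before the start. The match of Il18 was on the opposite strand, 170 to 175 bases before the start, and that of the first Il33 start lay 198 to 203 bases before it. CRE (1.55% of all windows) and STAT (7.02%) had no match in any of these windows. Il1rn has 3 annotated starts and Il11 and Il33 have 2 each, and the counts sum over them.

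Levels are given as normalised CPM, the reads of a gene scaled to a common library size with TMM factors over all 53 libraries, and comparisons as log2 fold changes from the edgeR quasi-likelihood test with their standard error (SE). A gene was called changed at a Benjamini-Hochberg adjusted p under 0.05 over all genes tested. Library totals ran from 10005066 to 32824795 counts, apart from 1 d4 Apcfl/fl library with 516985. Gm13394, a processed copy of Gapdh whose level fell into a high and a low class among libraries, exceeded 10 CPM in all treated or mutant d30 mice and in no d30 WT mouse, and in all 3 WT SI and no Apcfl/+ tumour. In these comparisons whatever sets Gm13394 and the genotype cannot be told apart. Gm13394 also exceeded 10 CPM in 3 of 4 BA tumours, BA tumour 2 being the exception, and in 0 of 3 WT colons. There they are told apart by that tumour alone. The Y-linked gene Ddx3y exceeded 10 CPM in 3 of 4 BA tumours and 0 of 3 WT colons, and in 1 of 5 Apcfl/+ tumours and 3 of 3 WT SI. Colon markers were high in the colon groups and low in the small intestine groups. Small intestine markers summed to 1551 CPM in BA tumour 2 against 208 to 268 CPM in the other BA tumours, and to 37.2 CPM in Apcfl/+ tumour 2 against 5651 to 9869 CPM in the other Apcfl/+ tumours.

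**Figure D1:**
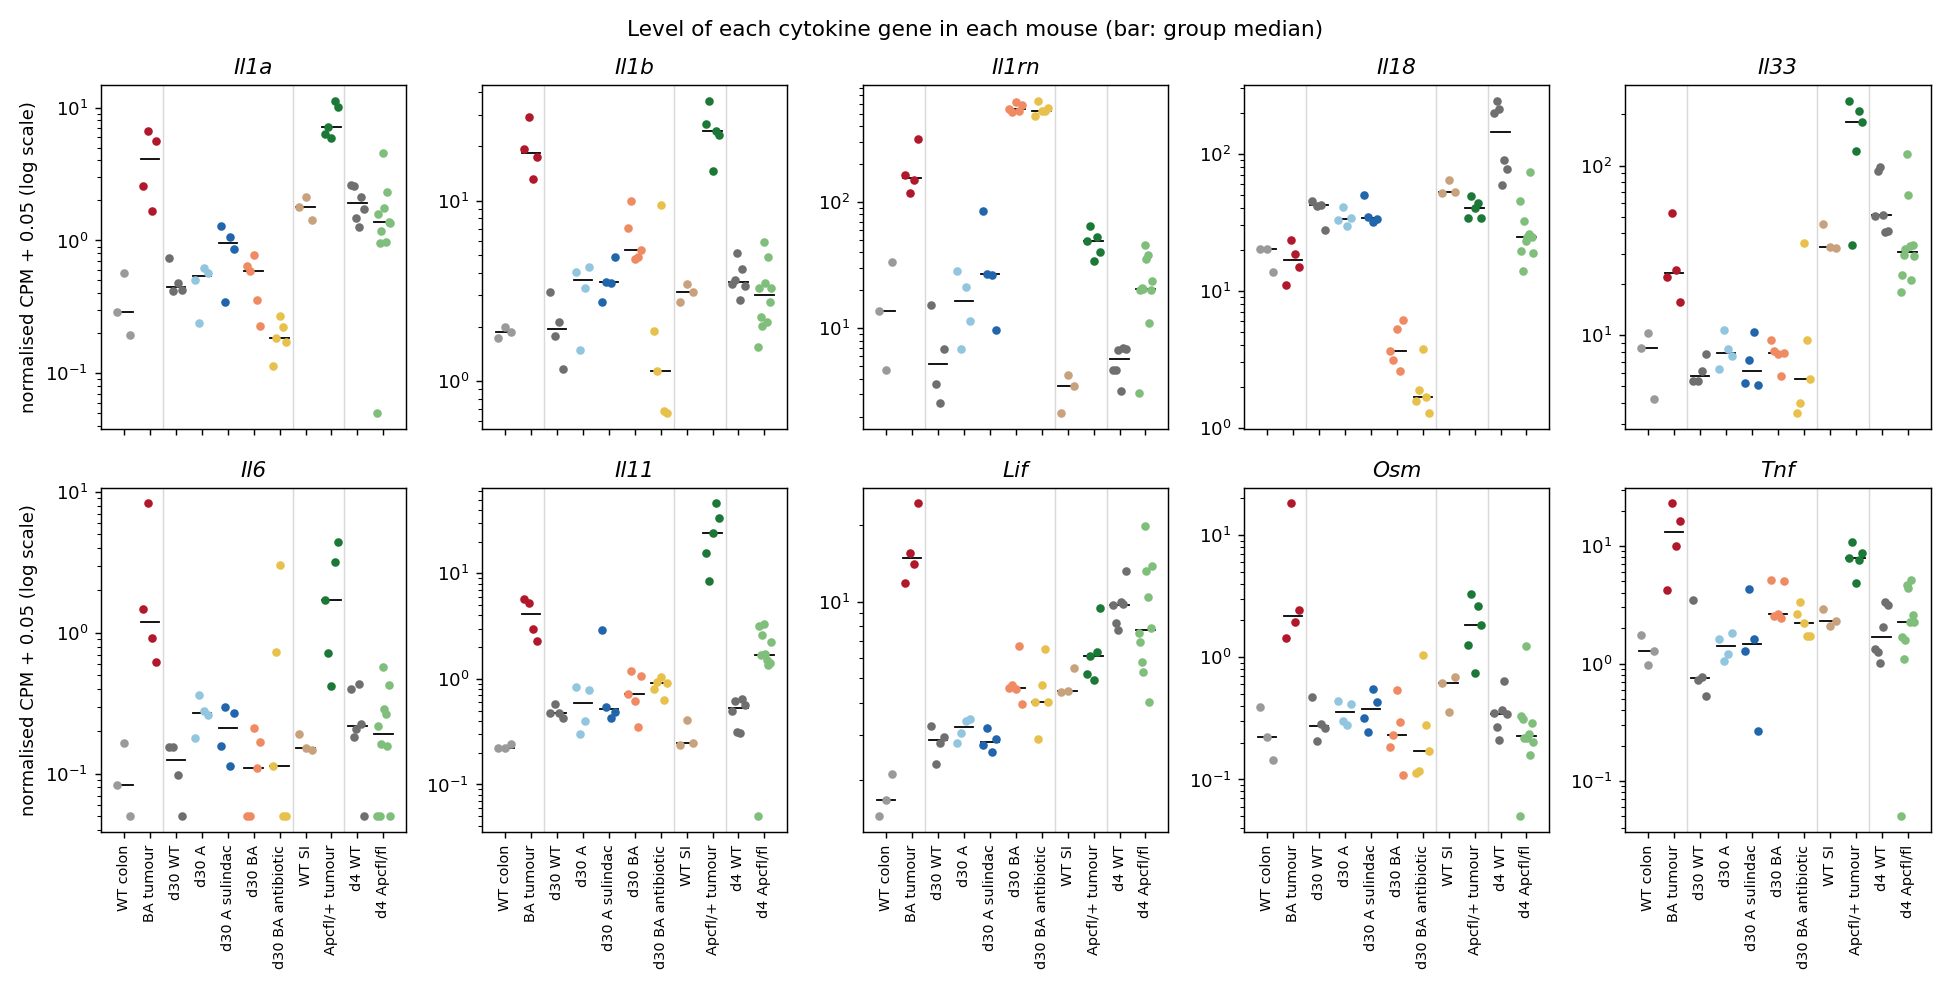
Level of each cytokine in every mouse, in normalised CPM plus 0.05 on a log axis, with 1 point per mouse and a bar at the median of each of the 11 groups. Il1rn stood at 484 CPM or more in all 10 BA mice at d30, treated or not, where Il18 was at its lowest, and Il11 was highest in the Apcfl/+ tumours.

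In BA tumours, 9 of the 10 cytokines were higher than in WT colon, against 7.46% of the 19188 genes tested that were called higher. Their levels did not overlap between the groups for any of the 9, as was the case in this direction for 13.5% of all genes. The median log2 fold change of the 10 was 3.46, and that of all genes tested was 0.03. Il18 was the gene that did not pass the test.

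Among the IL-1 receptor agonists, Il1a (ENSMUSG00000027399, chr2:129299610-129309972, minus strand, GRCm38 as are all gene positions here) reached 2.54, 6.59, 1.61 and 5.56 CPM in the 4 BA tumours and 0.237, 0.518 and 0.143 CPM in the WT colons. All tumours lay above all WT colons, and the log2 fold change was 3.80 (SE 0.70, adjusted p = 0.00971). The exons of Il1a overlap the antisense gene Gm14023 over 222 bases, and reads there cannot be assigned by these counts. Il1b (ENSMUSG00000027398, chr2:129364570-129371139, minus), the agonist made mainly by myeloid cells, was at 19.3, 29.0, 13.2 and 17.3 CPM in tumours and at 1.69, 1.96 and 1.81 CPM in WT colon. The increase of 3.46 (SE 0.35, adjusted p = 0.00112) was called with every library left out in turn.

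Their antagonist Il1rn (ENSMUSG00000026981, chr2:24336853-24351494, plus) was at 162, 118, 150 and 315 CPM in the tumours and 13.8, 4.60 and 33.3 CPM in WT colon. It rose by 3.45 on the log2 scale (SE 0.65, adjusted p = 0.0105), close to the value for Il1b. The WT colons themselves spanned 4.60 to 33.3 CPM, and without WT colon 3 the change was 4.37 (adjusted p = 0.0126). Without WT colon 1 the adjusted p was 0.0666 for Il1rn and 0.0628 for Il1a.

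Il18 (ENSMUSG00000039217, chr9:50554827-50581840, plus) gave 11, 23.6, 18.5 and 14.8 CPM in tumours and 20.2, 20.3 and 13.6 CPM in WT colon, with overlapping groups and a log2 fold change of -0.06 (SE 0.30, adjusted p = 0.926). Il33 (ENSMUSG00000024810, chr19:29925114-29960718, plus), an alarmin released from damaged cells, rose from 8.40, 10.3 and 4.15 CPM to 22.0, 52.6, 24.1 and 15.7 CPM. The change was 1.95 (SE 0.49, adjusted p = 0.0312), and it did not pass without WT colon 1 (0.117), WT colon 3 (0.107) or BA tumour 3 (0.0508). Tnf (ENSMUSG00000024401, chr17:35199381-35202007, minus), the ligand of Tnfrsf1a and Tnfrsf1b, was at 4.21, 23.0, 9.89 and 16.2 CPM in tumours and 1.69, 0.920 and 1.24 CPM in WT colon. Its change of 3.40 (SE 0.60, adjusted p = 0.00864) remained called with each library left out.

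All 4 IL-6 family genes rose in the BA tumours. Il11 (ENSMUSG00000004371, chr7:4772373-4782859, minus) went from 0.169, 0.173 and 0.191 CPM in WT colon to 5.63, 5.14, 2.93 and 2.23 CPM in tumours, a change of 4.47 (SE 0.52, adjusted p = 0.00214). Lif (ENSMUSG00000034394, chr11:4257557-4272514, plus), whose receptor is Lifr, went from 1.39, 1.61 and 2.05 CPM to 11.8, 15.5, 14.0 and 24.2 CPM, a change of 3.31 (SE 0.34, adjusted p = 0.00128). Both were called with every library left out, and for neither did the tumours overlap with WT. Osm (ENSMUSG00000058755, chr11:4236420-4241026, plus), the ligand of Osmr, was at 1.38, 18.1, 1.90 and 2.40 CPM in tumours and 0.339, 0.173 and 0.0953 CPM in WT colon. BA tumour 2 was far above the other tumours, and the change was 4.82 (SE 1.16, adjusted p = 0.027).

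Il6 (ENSMUSG00000025746, chr5:30013114-30019981, plus) had 33, 80, 15 and 14 reads in the BA tumours and 1, 2 and 0 reads in the WT colons. As 142 and 3 summed reads these gave a ratio of 44.0 in CPM, with an exact 95% interval of 14.8 to 216 that covers counting error only. The test across mice gave an adjusted p of 0.0259. Il6 and Osm each lost the call when any 1 WT colon was left out, with adjusted p values for Il6 of 0.123, 0.0521 and 0.0965 and for Osm of 0.0951, 0.0781 and 0.105. BA tumour 2 supplied 80 of the 142 tumour reads, and the log2 fold change of Il6 was 5.77 with it, 4.23 without it (adjusted p = 0.0100) and 6.78 without WT colon 2. That of Osm was 5.44 without WT colon 1. Without BA tumour 2, 9 cytokines were called, with Osm at 3.12 (adjusted p = 0.00616) and Tnf at 2.94 (adjusted p = 0.00619). With a term for Ddx3y in the model, Il1b, Il11 and Lif were called and the other 7 were not. Ddx3y exceeded 10 CPM in 3 of 4 BA tumours and 0 of 3 WT colons. The genotype effect of that fit therefore rests on the remaining tumour, and the lost calls cannot be read as an effect of sex.

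In these tumours the markers of neutrophils were higher for 7 of 7 genes tested (8 were listed), and the 7 listed markers other than Ly6g summed to 19.4 to 81.2 CPM against 2.71 to 5.41 CPM in WT colon. Fibroblast markers summed to 4270 to 5396 CPM against 1573 to 2434 CPM, and macrophage and monocyte markers to 570 to 1729 CPM against 408 to 446 CPM. The part of these cells in the cytokine levels was not tested. In bulk tissue, more cells of a type and more RNA per cell cannot be told apart.

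**Figure D2:**
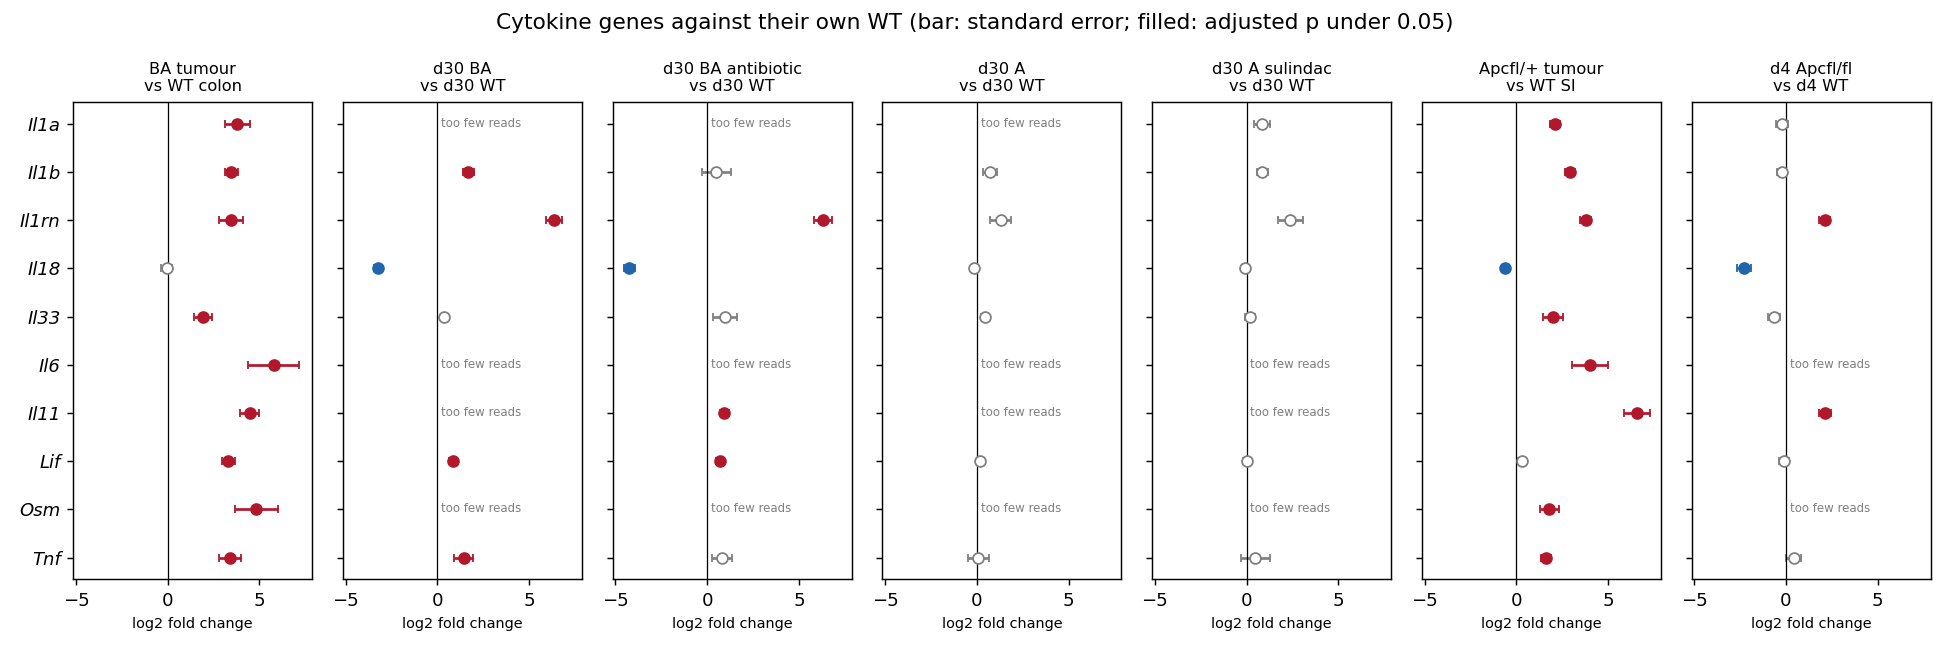
Log2 fold change of each cytokine against the WT of its own comparison, with bars of 1 SE. Filled points had an edgeR adjusted p under 0.05, red for higher and blue for lower, and cytokines with too few reads to be tested are marked as such. Il1rn was the highest point in the d30 BA panels and Il11 in the Apcfl/+ tumour panel.

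The receptors and transducers of these cytokines were described by lists. In BA tumours 3 of 9 IL-1 family receptors and decoys were higher and none lower, among them the decoy receptor Il1r2 (2.56, SE 0.67, adjusted p = 0.0373) and Il18rap, a subunit of the Il18 receptor (2.64, SE 0.47, adjusted p = 0.0087). Il1r1 gave 1.03 (SE 0.45, adjusted p = 0.167). Among IL-6 family receptors, Osmr rose by 2.38 (SE 0.29, adjusted p = 0.00238) and the Il11 receptor Il11ra1 was at -0.78 (SE 0.22, adjusted p = 0.0479). Of 12 JAK-STAT3 genes, 4 were higher and none lower, led by Socs3, the feedback inhibitor of the pathway (3.56, SE 0.73, adjusted p = 0.0153). Of 9 NF-kB feedback genes and targets, 4 were higher and none lower, including Tnfaip3 (1.82, SE 0.48, adjusted p = 0.0386). The inflammasome genes divided, with Nlrp3 up by 2.39 (SE 0.43, adjusted p = 0.00892) and Casp1 at -0.90 (SE 0.22, adjusted p = 0.0272). The medians were 1.03 for the IL-1 family receptors and decoys, 1.18 for the JAK-STAT3 genes, 1.28 for the NF-kB genes and 0.51 for the inflammasome genes on the log2 scale, beside 0.03 for all genes.

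At d30 the BA colon differed from WT in a narrower set of the cytokines. Of 6 that had enough reads for the test, 4 were higher and 1 lower, where 25.8% of 17471 genes were called higher and 29.3% lower. Il1a, Il6, Il11 and Osm did not pass the filter on low counts.

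Il1rn was at 542, 521, 622, 524 and 592 CPM in the 5 d30 BA mice and at 15.4, 3.56, 2.51 and 6.85 CPM in the 4 d30 WT mice. The groups did not overlap, as for 20.4% of all genes in this direction, with a log2 fold change of 6.35 (SE 0.45, adjusted p = 8.32e-07), which is 81.5-fold. Without d30 WT 1, the WT mouse with the most Il1rn, it was 7.06 (adjusted p = 6.71e-08). Il18 moved the other way, at 3.59, 3.07, 5.21, 2.55 and 6.04 CPM against 45.0, 41.6, 42.4 and 27.5 CPM. It was 9.43-fold lower, with a log2 fold change of -3.24 (SE 0.23, adjusted p = 8.1e-07) and no overlap between the groups, as for 25% of all genes in this direction. Per kilobase of exon, the median of Il1rn in d30 BA mice was 97.9 CPM, the highest of this gene in any of the 11 groups. The antibiotic-treated BA mice, at 95.1 CPM, overlapped with them.

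Il1b was at 6.97, 9.89, 4.72, 4.80 and 5.27 CPM in d30 BA and 3.06, 1.73, 2.08 and 1.12 CPM in d30 WT, all BA mice lying above all WT mice. The change of 1.69 (SE 0.30, adjusted p = 0.000714) was called without any 1 library. Lif was at 4.52, 4.64, 4.47, 6.63 and 3.91 CPM against 3.21, 2.25, 2.75 and 2.89 CPM, a change of 0.83 (SE 0.18, adjusted p = 0.00264). Tnf was at 5.05, 2.47, 2.60, 2.37 and 5.04 CPM against 3.42, 0.680, 0.711 and 0.481 CPM, and d30 WT 1 lay within the range of the BA mice. Its change of 1.44 (SE 0.52, adjusted p = 0.0345) was called in 4 of 9 fits that left out 1 library, and not without d30 BA 1 or 5 or d30 WT 2, 3 or 4. Without d30 WT 1 it was 2.49 (adjusted p = 0.000266). Il33 gave 0.36 (SE 0.16, adjusted p = 0.0823).

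The 5 d30 BA mice were also compared with the d30 A mice, in which Gm13394 likewise exceeded 10 CPM. Of 7 cytokines tested, 4 were higher and 1 lower in BA than in A, where 21.7% of genes were called higher and 23.6% lower. A mice had 28.2, 6.84, 21.3 and 11.5 CPM of Il1rn, and BA mice were 33.9-fold higher (5.08, SE 0.38, adjusted p = 3.49e-06). Il18, at 32.7, 41.0, 29.8 and 33.8 CPM in A mice, was 8.15-fold lower in BA mice (-3.03, SE 0.22, adjusted p = 3.24e-06). Il1b rose by 1.01 (SE 0.32, adjusted p = 0.0249), Lif by 0.67 (SE 0.19, adjusted p = 0.0141) and Tnf by 1.38 (SE 0.31, adjusted p = 0.00438). Without d30 BA 2 the adjusted p of Il1b was 0.0612. With all 5 d30 groups in 1 fit it was 0.172 for Il1b and 0.0607 for Tnf, which left 3 calls.

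In both d30 BA groups the sum of the epithelial markers was at least 22234 CPM, against 12929 to 15289 CPM in d30 WT. Ly6g, otherwise a marker of neutrophils, was at 319 to 512 CPM in d30 BA and 0.052 to 0.321 CPM in d30 WT, while the other 7 neutrophil markers summed to 2.19 to 5.37 and 2.35 to 4.06 CPM. Macrophage and monocyte markers summed to 235 to 359 CPM in d30 BA and 270 to 360 CPM in d30 WT. Fibroblast markers were lower in d30 BA for 6 of 8 tested and summed to 995 to 1260 CPM against 1356 to 1707 CPM. T cell markers were lower for 4 of 7 (9.16 to 14.2 against 14.3 to 23.7 CPM), smooth muscle markers for 3 of 5 (872 to 3716 against 4747 to 5436 CPM) and endothelial markers for 2 of 4 (76.6 to 97.0 against 91.6 to 116 CPM). The part of these cells in the cytokine levels was not tested.

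**Figure D3:**
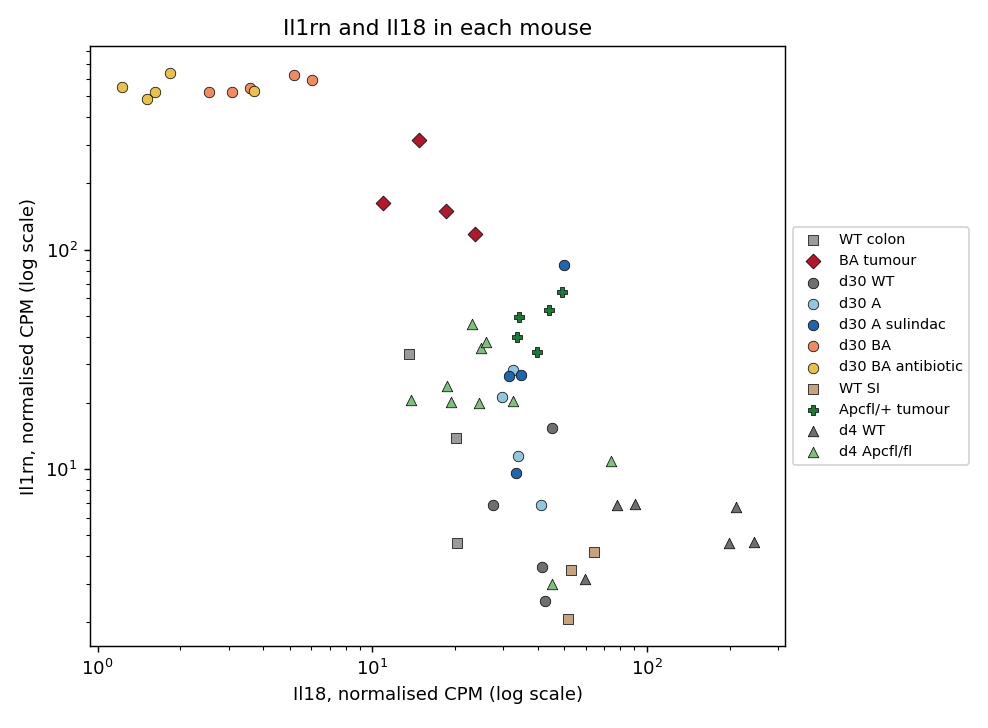
Il1rn against Il18 in each mouse, both in normalised CPM on log axes, with the 11 groups in colour. The 10 d30 BA mice, with or without antibiotics, occupied the corner of high Il1rn (484 to 636 CPM) and low Il18 (1.22 to 6.04 CPM).

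Il1rn reads outnumbered Il1b reads in the same library by a median of 109 in d30 BA (52.7 to 132) and 3.55 in d30 WT (1.20 to 6.10). In d30 A mice the ratio was 5.66 (2.70 to 7.08), and in sulindac-treated A mice 7.67 (1.98 to 31.7). The ratio was 9.91 in BA tumours (4.07 to 18.2) and 8.14 in WT colon (2.35 to 18.4), 586 in antibiotic-treated BA mice (55.6 to 899), 7.6 in Apcfl/fl at d4 (2.00 to 18.3) and 1.33 in d4 WT (1.14 to 2.07), and 1.84 in Apcfl/+ tumours (1.72 to 2.33) and 1.13 in WT SI (0.772 to 1.24). In antibiotic mice 1, 2, 4 and 5 the ratio rested on only 29, 16, 11 and 10 Il1b reads. This ratio was chosen after the values were seen and is given as a description.

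Several receptors were lower in the d30 BA colon, where 29.3% of all genes were called lower, as were part of the fibroblast, smooth muscle, T cell and endothelial markers, whose part here was not tested. Of 9 IL-1 family receptors and decoys 5 were lower and 1 higher, with a median of -0.60 beside -0.03 for all genes. Il1r1 was at -1.41 (SE 0.10, adjusted p = 9.09e-07), Il18r1 at -1.93 (SE 0.31, adjusted p = 0.000354) and the co-receptor Il1rap at -0.97 (SE 0.16, adjusted p = 0.000503). Among IL-6 family receptors, Il6st, Il6ra, Cntfr, Il11ra1 and Lifr were lower, with Il11ra1 at -1.21 (SE 0.11, adjusted p = 4.88e-06) and Lifr at -0.75 (SE 0.10, adjusted p = 8.28e-05). The receptors of Tnf went up, Tnfrsf1b by 1.54 (SE 0.09, adjusted p = 2.54e-07) and Tnfrsf1a by 0.84 (SE 0.10, adjusted p = 4.68e-05). Of 12 JAK-STAT3 genes 7 were higher and 3 lower, the lower ones being the secreted antimicrobial and acute-phase genes Reg3b, Reg3g and Saa3, with Saa3 at -2.44 (SE 0.40, adjusted p = 0.000394). Il1f8, which encodes another IL-1 family agonist, was the 1 of 5 further IL-1 family ligands of the list with enough reads to be tested, and it rose by 2.95 (SE 0.31, adjusted p = 1.48e-05).

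In antibiotic-treated BA mice, set against the same d30 WT mice, 3 of 7 cytokines tested were higher and 1 lower, where 21.8% of genes were called higher and 17.8% lower. Il1rn was at 484, 636, 526, 524 and 550 CPM (6.30, SE 0.50, adjusted p = 8.37e-06) and Il18 at 1.52, 1.83, 3.71, 1.62 and 1.22 CPM (-4.26, SE 0.30, adjusted p = 3.86e-06). Neither overlapped with WT, and without d30 WT 1 the change of Il1rn was 7.01. Lif was at 3.99, 2.85, 4.65, 6.48 and 3.98 CPM (0.69, SE 0.23, adjusted p = 0.037), with mouse 2 within the WT range. Il11 was at 0.759, 0.881, 0.997, 0.579 and 0.857 CPM against 0.421, 0.523, 0.426 and 0.374 CPM in WT (0.92, SE 0.25, adjusted p = 0.0135). The call of Lif held in 2 of 9 fits that left out 1 library, and that of Il11 was lost with DESeq2 (0.0688), without the filter (0.0619) and with all d30 groups in 1 fit (0.201). Il1a was at 0.0633, 0.136, 0.222, 0.174 and 0.122 CPM against 0.685, 0.366, 0.426 and 0.374 CPM in WT, with no overlap between the groups. It did not pass the filter on low counts, and the alternatives that tested it called it lower, at -1.63 without the filter (adjusted p = 0.0166), -1.61 with all d30 groups in 1 edgeR fit (adjusted p = 0.0149) and -1.64 with DESeq2 (adjusted p = 0.0388).

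Antibiotic mouse 3 stood apart for several of the cytokines. Il1b was 9.47 CPM in this mouse and 1.83, 1.08, 0.637 and 0.612 CPM in the other 4, Il33 was 34.9 CPM against 3.42 to 9.32 CPM, and Il6 had 54 reads against 0 to 10. The same library held 7606 CPM of summed fibroblast markers against 1077 to 1504 CPM in the others, and 37.3 CPM of the 7 neutrophil markers without Ly6g. The part of these cells in its cytokine levels was not tested.

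Between antibiotic-treated and untreated BA mice, 0 of 7 cytokines passed the edgeR test, where 13% of all genes did. By edgeR 1 had an unadjusted p under 0.05 (30.8% of all genes), and DESeq2 called 1 cytokine. Il18 gave -1.04 (SE 0.34, adjusted p = 0.0655) and Il1b -1.19 (SE 0.68, adjusted p = 0.252). Without antibiotic mouse 3, both were called, Il18 at -1.41 (adjusted p = 0.00598) and Il1b at -2.63 (adjusted p = 0.00102). Il1rn differed by -0.05 (adjusted p = 0.693), and Tnf by -0.63 (SE 0.29, adjusted p = 0.164).

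**Figure D4:**
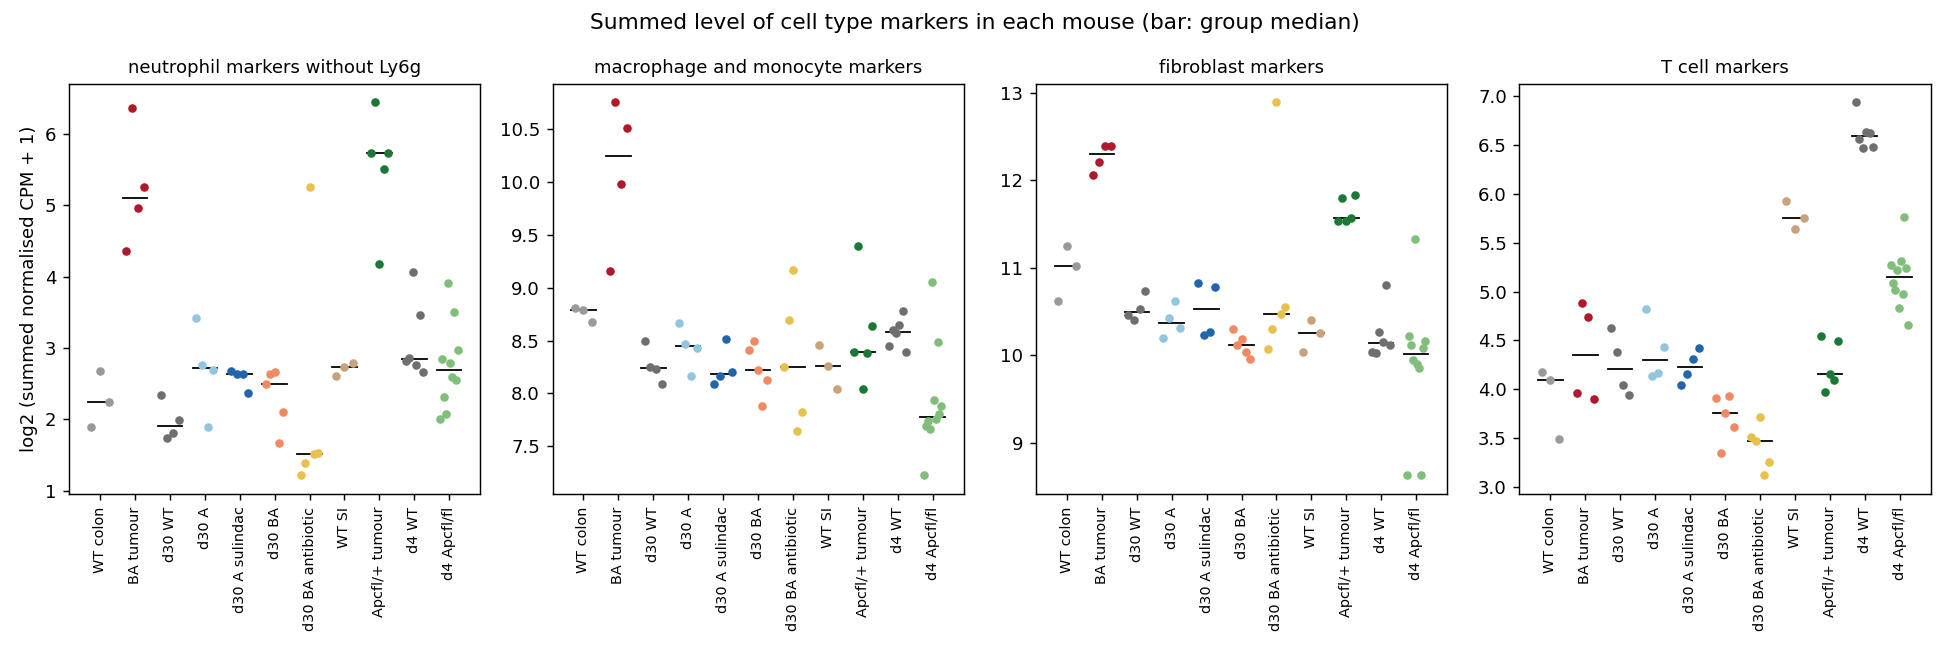
Summed level of the neutrophil (without Ly6g), macrophage and monocyte, fibroblast and T cell markers in each mouse, as log2 of CPM plus 1, by group. Both kinds of tumour lay above their WT for the neutrophil and fibroblast markers, and antibiotic mouse 3 (fibroblast markers 7606 CPM) lay above the rest of its group.

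The A mice gave no call among the cytokines. In d30 A against d30 WT, 0 of 6 passed the edgeR test, where 0.141% of all genes did, and 2 had an unadjusted p under 0.05 (9.69% of all genes). DESeq2 called 0 of the cytokines and 132 of all genes. Il1rn was at 1.30 (adjusted p = 0.51) and Il1b at 0.72 (adjusted p = 0.53), and both ranges overlapped with WT. In sulindac-treated A mice Il1rn was at 85.0, 26.7, 26.6 and 9.59 CPM and gave 2.39 against WT (SE 0.70, adjusted p = 0.42). Here 0 of 7 cytokines passed the edgeR test, where 0.0507% of all genes did, and 2 had an unadjusted p under 0.05 (9.06% of all genes). By DESeq2, 0 of the cytokines and 108 of all genes were called. Between sulindac-treated and untreated A mice 0 of 7 cytokines passed the edgeR test, where 0% of all genes did, and 0 had an unadjusted p under 0.05 (2.62% of all genes). The DESeq2 test called 0 of the cytokines and 7 of all genes.

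In the small intestine, 8 of 10 cytokines were higher and 1 lower in Apcfl/+ tumours than in WT SI, where 31.4% of 20567 genes were called higher and 61.5% in either direction. The median log2 fold change was 2.05, beside 0.03 for all genes. Il11 had the highest value of the 10, at 15.5, 8.37, 24.0, 45.9 and 33.5 CPM in the tumours and 0.188, 0.354 and 0.195 CPM in WT SI. The change was 6.56 (SE 0.72, adjusted p = 0.000138), or 94.6-fold, and every tumour exceeded every library of the other 10 groups.

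The IL-1 receptor ligands rose together here. Il1a was at 6.25, 7.04, 5.89, 11.2 and 10.0 CPM against 1.74, 2.08 and 1.37 CPM (2.12, SE 0.28, adjusted p = 0.000355). Il1b was at 26.7, 35.9, 14.7, 24.4 and 23.2 CPM against 2.68, 3.39 and 3.07 CPM (2.93, SE 0.29, adjusted p = 8.63e-05). Il1rn was at 49.1, 64.0, 34.1, 52.8 and 39.9 CPM against 2.07, 4.20 and 3.46 CPM (3.78, SE 0.31, adjusted p = 3.83e-05). No tumour overlapped with WT SI in any of these 3, as for 33.5% of all genes in this direction.

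Il33 was at 241, 33.8, 122, 211 and 181 CPM in the tumours and 45.5, 33.2 and 32.7 CPM in WT SI (1.98, SE 0.54, adjusted p = 0.0115). Tumour 2, the one with few small intestine markers, lay within the WT range, and without it the change was 2.24 (adjusted p = 5.12e-05). The 9 calls of the comparison were made without tumour 2 as well. Il18 was the gene that fell, at 34.2, 49.0, 39.9, 43.8 and 33.7 CPM against 51.5, 64.2 and 52.9 CPM (-0.59, SE 0.15, adjusted p = 0.00748). Tnf was at 7.95, 10.7, 4.78, 7.51 and 8.65 CPM against 2.87, 2.02 and 2.24 CPM (1.63, SE 0.27, adjusted p = 0.00103).

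Lif did not pass the test in these tumours, at 5.15, 6.08, 4.87, 6.28 and 9.36 CPM against 4.38, 4.40 and 5.46 CPM (0.32, SE 0.24, adjusted p = 0.267). Il6 was at 1.65, 0.665, 0.371, 3.12 and 4.36 CPM in tumours and had 3, 2 and 2 reads in WT SI (adjusted p = 0.00712). Osm was at 1.20, 3.23, 0.696, 2.60 and 1.77 CPM against 0.565, 0.304 and 0.634 CPM (1.80, SE 0.54, adjusted p = 0.0171). With a term for Ddx3y neither of these 2 was called (adjusted p = 0.0626 for Il6 and 0.276 for Osm), and without WT SI 2 the value for Osm was 0.0644. As 1 of 5 tumours and 3 of 3 WT SI exceeded 10 CPM of Ddx3y, the genotype effect with that term rests on 1 tumour.

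Il1rl1, the receptor of Il33, was higher too in the Apcfl/+ tumours (3.72, SE 0.30, adjusted p = 3.64e-05). Of the 9 IL-1 family receptors and decoys 5 were higher and 2 lower, the lower ones being Il18r1 (-1.22, SE 0.26, adjusted p = 0.0037) and Il18bp, which encodes the soluble inhibitor of Il18 (-1.68, SE 0.12, adjusted p = 1.96e-05). Il1f9, another IL-1 family agonist, rose by 5.86 (SE 1.18, adjusted p = 0.00267). Among IL-6 family receptors, Il11ra1 was higher (0.66, SE 0.12, adjusted p = 0.00141) and Lifr was lower (-0.41, SE 0.12, adjusted p = 0.0179). Of 12 JAK-STAT3 genes 4 were higher and 3 lower, where 31.4% of all genes were called higher and 61.5% in either direction, with Saa3 at 4.79 (SE 0.55, adjusted p = 0.000171). Neutrophil markers were higher for 6 of 7 tested, and the 7 listed without Ly6g summed to 17.1 to 85.9 CPM against 5.09 to 5.95 CPM. Fibroblast markers summed to 2958 to 3662 CPM against 1049 to 1351 CPM. Mast cell markers were higher for 4 of 5 tested and summed to 55.2 to 174 CPM against 12.9 to 18.8 CPM, and T cell markers were lower for 6 of 7 tested and summed to 14.7 to 22.3 CPM against 48.8 to 59.7 CPM. The part of these cells in the levels of the cytokines and their receptors was not tested.

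At d4 after loss of both Apc alleles, 2 of 8 cytokines tested were higher and 1 lower, where 27.5% of 17536 genes were called higher and 26.7% lower. Il6 and Osm did not pass the filter. Il1rn ranged from 3.00 to 45.8 CPM (median 20.5) in the 10 Apcfl/fl mice and from 3.15 to 6.92 CPM (median 5.67) in the 6 WT mice (2.11, SE 0.32, adjusted p = 3.98e-05). Il11 ranged from 0 to 3.25 CPM (median 1.65) against 0.258 to 0.591 CPM (median 0.481), with a change of 2.13 (SE 0.31, adjusted p = 2.55e-05). The lowest Apcfl/fl value of both genes, from 2 and 0 reads, came from the library of 516985 counts, and the other 9 libraries lay above all WT mice for both.

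Il18 ranged from 13.8 to 73.8 CPM (median 24.6) in Apcfl/fl and from 59.3 to 244 CPM (median 145) in WT at d4, and fell by 2.27 on the log2 scale (SE 0.37, adjusted p = 8.57e-05). WT mice over 10 CPM of Gm13394 had 59.3 to 90.7 CPM of Il18 and those under it 199 to 244 CPM, while Apcfl/fl mice had 18.8 to 73.8 and 13.8 to 45.0 CPM. T cell markers were lower for 7 of 7 genes tested in Apcfl/fl at d4. The calls of Il1rn, Il11 and Il18 were made with each of the 16 libraries left out. Il1b was at -0.23 (adjusted p = 0.449), Il1a at -0.20 (adjusted p = 0.631) and Il33 at -0.63 (SE 0.33, adjusted p = 0.109). Without Apcfl/fl 5, which held 116 CPM of Il33 and 2578 CPM of summed fibroblast markers against 395 to 1198 CPM in the other Apcfl/fl mice, Il33 was at -0.95 with an adjusted p of 0.00294.

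Of the signalling lists at d4, 7 of 9 NF-kB feedback genes and targets were lower and none higher, with Tnfaip3 at -1.10 (SE 0.12, adjusted p = 2.06e-06). The IL-6 family receptor Lifr was at -1.03 (SE 0.17, adjusted p = 9.5e-05), and Casp1, which cuts pro-Il18, was at -1.35 (SE 0.17, adjusted p = 7.64e-06). Il1rl1 rose by 1.38 (SE 0.19, adjusted p = 1.39e-05). The median of the NF-kB list was -0.82 on the log2 scale, beside 0.00 for all genes. In d30 BA, 2 of the same 9 genes were higher and 0 lower (median 0.03), where 25.8% of all genes were called higher. In Apcfl/+ tumours, 1 was higher and 2 lower (median -0.09), where 31.4% of all genes were called higher and 61.5% in either direction.

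The changes in 2 settings were then compared directly, as the difference of their log2 fold changes. Between the BA tumour and the Apcfl/+ tumour, 2 of 10 cytokines differed, both with the higher log2 fold change in the BA tumour, where 21.9% of 21668 genes were called so. Lif differed by 3.02 (SE 0.39, adjusted p = 0.000135), in all 15 fits that left out 1 library, and Tnf by 1.77 (SE 0.62, adjusted p = 0.0344), in 4 of 15. Il11 had a difference of -2.06 (adjusted p = 0.0876) and Osm of 3.01 (adjusted p = 0.0708), neither of which passed. The 2 settings also differed in organ and mouse background. Ddx3y exceeded 10 CPM in 3 of 4 BA tumours and 0 of 3 WT colons, but in 1 of 5 Apcfl/+ tumours and 3 of 3 WT SI. These contrasts had no term for Ddx3y, and the part of organ, background and sex in them was not tested.

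Between the BA tumour and the d30 BA colon, 7 cytokines had a higher log2 fold change in the tumour and 1 a lower one, where 9.87% and 6.46% of 20637 genes were called. Il1rn was the one with the lower value, with a difference of -2.89 (adjusted p = 0.0148), which was -2.01 without WT colon 3 (adjusted p = 0.077) and -3.54 without d30 WT 1. Il18, at -0.06 in the tumour and -3.24 in d30 BA, differed by 3.15 (adjusted p = 0.000155), Il11 by 3.69 (adjusted p = 0.00124), Lif by 2.47 (adjusted p = 0.000258) and Il1b by 1.77 (adjusted p = 0.0163). Il1a (3.76, adjusted p = 0.0041), Osm (5.02, adjusted p = 0.016) and Il33 (1.57, adjusted p = 0.0377) were also called, and the call of Il33 was kept in 8 of 16 fits that left out 1 library. The value for Osm was 3.43 without BA tumour 2, and that for Il1a was 4.42 without WT colon 2. WT colon and d30 WT themselves did not overlap for Il11 (0.169 to 0.191 against 0.374 to 0.523 CPM), Lif (1.39 to 2.05 against 2.25 to 3.21) and Il18 (13.6 to 20.3 against 27.5 to 45.0). The other cytokines overlapped between these WT groups. Ddx3y exceeded 10 CPM in 0 of 3 WT colons and 4 of 4 d30 WT mice. The part of the controls in these differences was not tested. Between the Apcfl/+ tumour and Apcfl/fl at d4, 7 cytokines had the higher log2 fold change in the tumour, where 12.4% of 22202 genes did. Over all genes 2759 were called higher and 2727 lower in this contrast, and 2100 and 3458 under RLE scaling, which moved the median of all genes by -0.13 on the log2 scale. Il11 differed by 4.39 (adjusted p = 6.41e-05), Il1b by 3.13 (adjusted p = 2.07e-05), Il33 by 2.58 (adjusted p = 0.00626) and Il6 by 3.93, or 3.34 without Apcfl/+ tumour 5. Il18 fell in both, by less in the tumour (-0.59 and -2.27), and differed by 1.70 (adjusted p = 0.0311, with 0.0556 under RLE scaling).

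**Figure D5:**
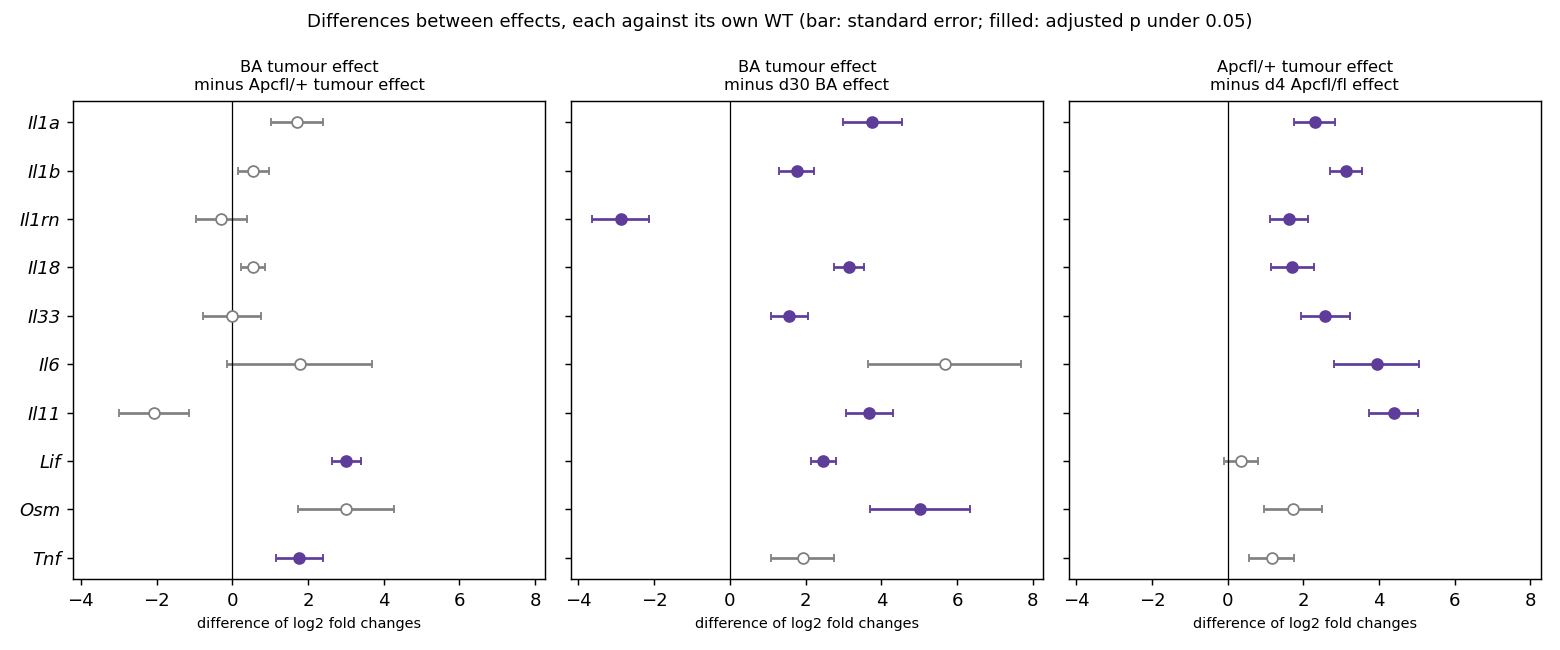
Difference between 2 log2 fold changes for each cytokine, with bars of 1 SE, for the BA tumour minus the Apcfl/+ tumour, the BA tumour minus d30 BA, and the Apcfl/+ tumour minus d4 Apcfl/fl. Filled points had an edgeR adjusted p under 0.05, and Lif stood at 3.02 in the first and Il1rn at -2.89 in the second.

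Ordered by group median, most neighbouring groups of each cytokine overlapped in range, from 8 of 10 neighbouring pairs for Il1b, Il1rn, Il18 and Il11 to 10 of 10 for Il1a and Tnf. For Il1b the separate steps were from d30 A up to d30 BA and from d30 BA up to BA tumours. For Il1rn they lay from Apcfl/+ tumours up to BA tumours and from BA tumours up to antibiotic-treated BA mice. For Il18 they lay from d30 BA up to BA tumours and from d30 WT up to WT SI, and for Il11 from WT SI up to d30 WT and from BA tumours up to Apcfl/+ tumours. Per kilobase of exon, the highest group median was 140 CPM for Il18 in d4 WT, 97.9 CPM for Il1rn in d30 BA, 62.7 CPM for Il33 in Apcfl/+ tumours, 12.8 CPM for Il1b and 11.5 CPM for Il11 in Apcfl/+ tumours.

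The genes whose 11 group means followed a cytokine most closely were sought among 20424 genes by Pearson r on log2 CPM. Anxa3 (r = 0.987), Syt8 (0.979) and Anxa2 (0.975) were nearest to Il1rn, and Ccl20 (0.962) to Il18. Tnfrsf9 (0.965) and Mmp8 (0.941), a neutrophil collagenase, were nearest to Il1b. Cxcl1 (0.973), Col18a1 (0.963) and Cxcl5 (0.962) were nearest to Il6, Vtcn1 (0.979) and Chit1 (0.976) to Il11, and Cxcl16 (0.948) to Lif. The 11 points share libraries and tissue with each other, and the values describe these groups.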

How the data were processed

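TruSeq RNA libraries from 53 samples were sequenced as paired reads. The authors deposited raw counts per gene, made with FastQC 0.11.8, Trim Galore 0.6.4, HISAT2 2.1.0 and featureCounts 1.6.4 on GRCm38, per the methods and the submitters' processing notes. The library kit does not mark strand, so antisense overlaps (Il1a, Il1b) are not resolved, and the treatment of multimapping reads is not given in the sources used here. Of 55421 identifiers, 55154 had a symbol.

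Each comparison of 2 groups was fitted alone with edgeR 4.0.16 (R 4.3.3) on the deposited counts, with filterByExpr, TMM and the two-sided quasi-likelihood test, and p values were adjusted over all genes tested. The SE is the log2 fold change over the square root of F. Differences between 2 fold changes were tested as contrasts over 4 groups. Group levels are described by medians and ranges. DESeq2 1.42.0, RLE scaling, no filter, a replicate block, 1 fit of the d30 groups, terms for Ddx3y and Gm13394, and leaving out each library were alternatives. The fitting code was tested on simulated counts.

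The labels number the samples of a group as replicates, taken here as separate mice, and give neither sex nor batch per library. Counts of 0 to 3 reads are at the floor of detection, and intervals cover counting error only. All 10 cytokines were named. Genes of the receptor, signalling and marker lists were named where they bind or transduce a cytokine or changed most, and the 3 genes most like a cytokine by group means were candidates for naming. The cytokines and lists were chosen with earlier results of these data known. The ratio of Il1rn to Il1b, the neutrophil sum without Ly6g and the split by Gm13394 were chosen after seeing the data. Promoter windows came from RefSeq (GRCm38.p6). Part of the IL-6 family receptor list is not reported here.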

Additional observations from a re-analysis of the deposited data

Results flagged for a closer look

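Of 68 sets of 4 to 10 mice tested for 1 mouse far from the others, 10 held such a mouse. Independent sets of normally distributed values would give about 1 in 20. These sets share mice and hold CPM without a log scale, so 10 of 68 cannot be read as an excess over chance. BA tumour 2 was high for Il6 (8.23 CPM) and Osm (18.1 CPM), and antibiotic mouse 3 for Il1b (9.47 CPM), Il18 (3.71 CPM) and Il33 (34.9 CPM). At d4, Apcfl/fl 5 was high for Il1a (4.50 CPM) and Il33 (116 CPM), and Apcfl/fl 8 for Il18 (73.8 CPM). At d30, BA mouse 4 was high for Lif (6.63 CPM) and WT mouse 1 for Tnf (3.42 CPM).

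In 17 cases a cytokine's log2 fold change differed between 2 settings by a test of the difference itself (edgeR, adjusted over all genes). Between the BA tumour and the Apcfl/+ tumour these were Lif (3.02) and Tnf (1.77). Between the BA tumour and d30 BA they were Il1a (3.76), Il1b (1.77), Il1rn (-2.89), Il18 (3.15), Il33 (1.57), Il11 (3.69), Lif (2.47) and Osm (5.02). Between the Apcfl/+ tumour and Apcfl/fl at d4 they were Il1a (2.30), Il1b (3.13), Il1rn (1.62), Il18 (1.70), Il33 (2.58), Il6 (3.93) and Il11 (4.39).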

How the results depend on the processing

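Under alternatives other than leaving out a library, 478 values of single cytokines kept their side of the threshold. Of the others, 24 lost the call and 9 gained one. With 1 library left out, 1170 kept their side, 53 lost the call and 13 gained one. Values that were not called could change direction. For Il1b in antibiotic-treated BA mice against WT, 0.50 became -0.93 in 1 fit that left out a library. The 9 calls in the BA tumour became 3 with a term for Ddx3y, a fit whose genotype effect rests on 1 tumour. They became 4 to 9 with 1 library left out (fewest without WT colon 1). The 0 calls between antibiotic-treated and untreated BA mice became 1 with DESeq2, 2 with all d30 groups in 1 fit, and 0 to 2 with 1 library left out. The 5 calls between BA and A mice became 3 with all d30 groups in 1 fit. The 2 cytokines that differed between the BA and Apcfl/+ tumours became 1 without the filter, 4 with DESeq2, and 1 to 3 with 1 library left out. The cause of these shifts was not tested.

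The deviations of same-numbered mice did not correlate over 0.1 in every pair of any comparison, though they did in 3 of 4 pairs of d30 A against d30 WT. Differently numbered mice were not compared, so whether the numbers pair mice was not settled. The numbers were taken as names. With the number as a replicate block, the calls in antibiotic-treated BA mice against WT went from 4 to 2 (Il11 and Lif lost), and single calls were lost for Osm in the BA tumour (4.21), Il33 (1.38) and Osm (1.43) in the Apcfl/+ tumour, and Il1b between BA and A (1.06). Among differences of fold changes the block lost Tnf (1.75) and Osm (4.40) and gained Il1a (1.73) and Il6 (5.86).

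Counts over all genes, which give the background shares, moved by over 1.5 times in some fits. In the BA tumour 2527 became 168 with a term for Ddx3y, 931 with the replicate block, and 696 without WT colon 1. In the Apcfl/+ tumour 12650 became 7030 with that term and 8333 with the block. In both comparisons the genotype effect with a term for Ddx3y rests on 1 tumour. In A mice 25 became 72 without the filter and 132 with DESeq2. In sulindac-treated A mice against WT 9 became 24 without the filter, 108 with DESeq2, 29 with all d30 groups in 1 fit and 2 with the block, and against A mice 0 became 1, 7 and, with the block, 1. Between antibiotic-treated and untreated BA mice 2172 became 1074 in 1 fit of the d30 groups and 1284 with the block. For the BA tumour minus d30 BA, 3371 became 2084 with the block. Il6 and Osm had few reads in most d30 mice and passed the filter in no comparison between d30 groups. The main fits did not test them there, so the lack of a call does not show that they were unchanged.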
